A study of Ovis aries with 20 samples.

Results

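Glucocorticoid response genes were taken by name from the deposited gene tables. The set names 10 genes: the glucocorticoid receptor NR3C1, the enzymes HSD11B1 and HSD11B2, and the targets KLF9, FKBP5, TSC22D3, PER1, ZBTB16, SGK1 and CEBPD. Of these, 9 were found among the 24478 genes of the tables, and CEBPD was not analysed here. All 9 passed a filter on low counts that kept 20097 genes. The study sequenced RNA from frozen tracheal tissue of sheep at days 65, 80, 100 and 120 and at birth (day 147). At each age it compared 2 samples from healthy animals (WT) with 2 from CF animals, which makes 20 samples in 10 groups. CF stands for cystic fibrosis, in which the chloride channel CFTR is defective. The labels do not state the CF allele, the sex of the animals or any treatment.

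Cortisol, the main glucocorticoid of sheep, enters cells and binds NR3C1, which is held in the cytoplasm by heat shock proteins and then moves to the nucleus and acts as a transcription factor. HSD11B1 forms cortisol from inactive cortisone inside the cell, and HSD11B2 does the reverse. In fetal sheep the adrenal gland raises cortisol before birth, and this rise is known to prepare the lung for breathing.

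Total counts per sample ran from 42372433 to 87651829. The tissue is labelled epithelial, and the epithelial markers EPCAM, KRT5 and FOXJ1 were detected in every library, with FOXJ1 at 112 to 842 CPM (counts relative to the TMM-scaled depth of the library, the unit of all levels below). SCGB1A1, a further epithelial marker, ran from 0 to 19.8 CPM. It had 0 counts in WT day 80 replicate 2, WT day 120 replicate 2, CF day 65 replicate 2 and CF day 80 replicate 1. Cartilage and fibroblast genes were present too, with COL2A1 at 59.8 to 3307 CPM and the 15 fibroblast markers summing to 4941 to 54284 CPM. WT day 80 replicate 2 carried thyroid genes (summed level 110952 CPM), CF day 65 replicate 2 liver genes (21532 CPM) and CF day 80 replicate 1 skeletal muscle genes (43267 CPM), while WT day 65 replicate 2 had the highest thymus and lymphocyte level (578 CPM). Libraries also differed in their length slope, the slope of log2 CPM on log2 exon length over genes after centring each gene, which was negative in 9 libraries and positive in 11. Both WT day 100 samples share 1 identifier in the labels, as do both CF birth samples, and WT day 65 replicate 2 shares its identifier with CF day 100 replicate 2. Nothing in the labels says that replicates came from separate animals in those groups, so p-values measure the spread between samples, which may be technical. In such bulk tissue, fewer cells of a type and less RNA per cell cannot be told apart.

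Set side by side per kilobase of exon, the mean level over the 20 samples was highest for TSC22D3, at 25.0 ± 13.9 CPM per kilobase (SD, n = 20). FKBP5 followed at 10.6 ± 6.84 and SGK1 at 8.83 ± 4.33 CPM per kilobase. NR3C1 (6.71 ± 4.10) and PER1 (6.45 ± 4.15) lay next to each other on the same scale. KLF9 averaged 3.31 ± 3.74 and ZBTB16 1.33 ± 2.37 CPM per kilobase, and both enzymes were lowest, at 0.604 ± 0.377 for HSD11B2 and 0.250 ± 0.175 for HSD11B1. No step between neighbours in this order was larger than their spread over samples, apart from that from TSC22D3 to FKBP5, where the means lay slightly more than 1 SD of TSC22D3 apart. The enzymes rested on few counts, from 16 to 154 per library for HSD11B2 and from 22 to 241 for HSD11B1.

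**Figure D1:**
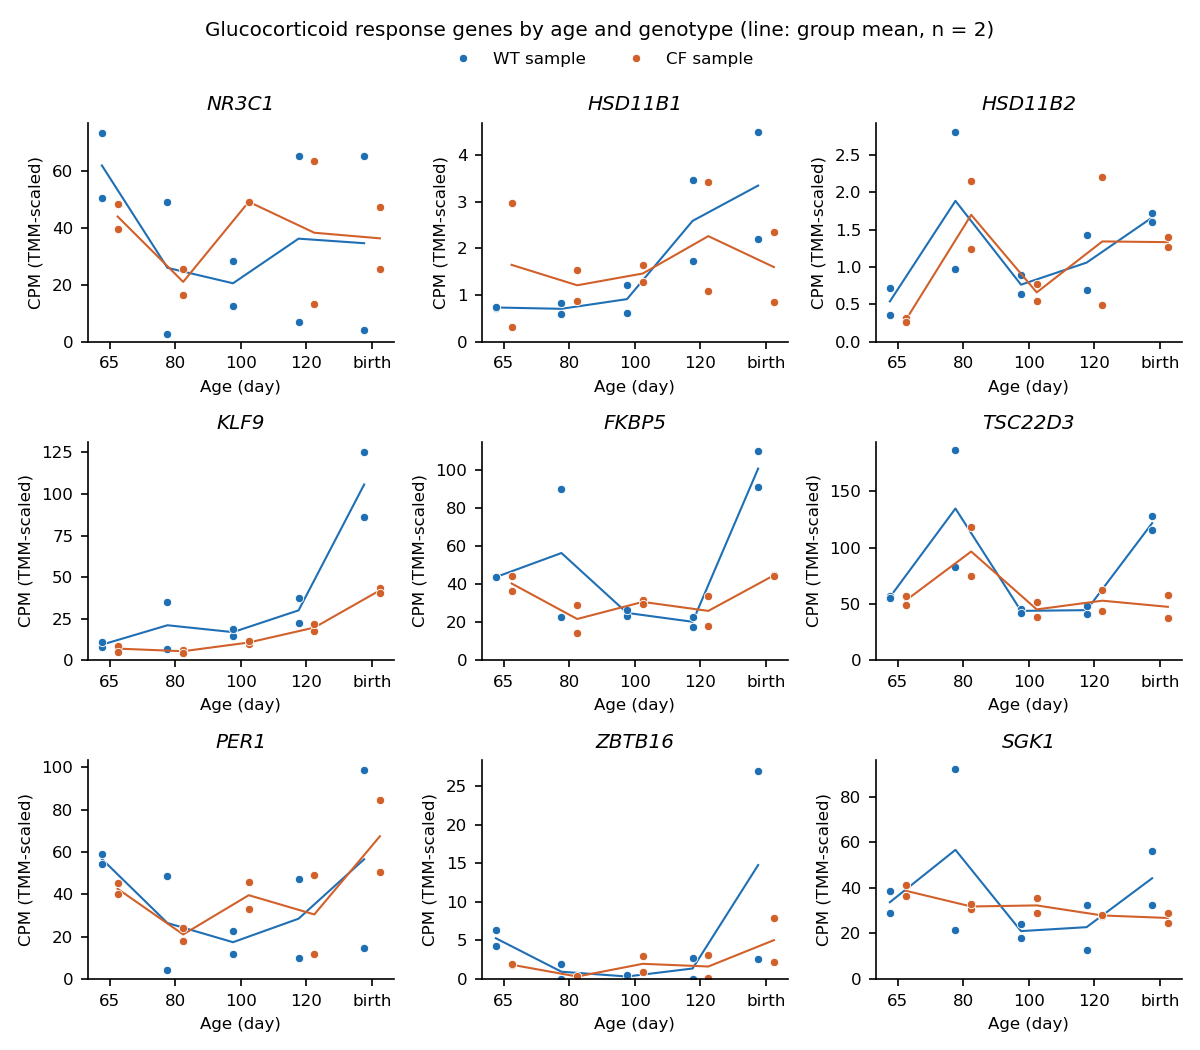
Level of each of the 9 genes in each sample (points, TMM-scaled CPM, linear axis from 0) against age, WT in blue and CF in orange, with lines through the group means (n = 2). KLF9 climbs to 40.4 to 125.5 CPM at birth, while the 2 WT samples of NR3C1 lie far apart at day 80, day 120 and birth.

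KLF9, a zinc finger transcription factor induced directly by the receptor, lies on chromosome 2, positions 65763659 to 65795004. In WT samples it measured 8.05 and 10.8 CPM at day 65, 7.10 and 35.1 at day 80, 14.9 and 19.0 at day 100, 37.4 and 22.7 at day 120, and 125.5 and 85.9 at birth. In CF samples it measured 8.91 and 5.19 CPM at day 65, 6.38 and 4.56 at day 80, 9.98 and 11.5 at day 100, 17.8 and 21.6 at day 120, and 43.8 and 40.4 at birth. All 4 birth samples lay above all 16 earlier ones, a separation found in 0.547% of the genes tested. Both CF samples lay below both WT samples at 4 of the 5 ages, day 65 being the exception.

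FKBP5, a co-chaperone that lowers the receptor's affinity for hormone and is itself induced by it, lies on chromosome 20, positions 9643649 to 9764833. Its WT levels were 43.7 and 43.9 CPM at day 65, 22.7 and 90.3 at day 80, 23.4 and 26.5 at day 100, 22.8 and 17.8 at day 120, and 91.4 and 110.4 at birth. Its CF levels were 36.7 and 44.2 CPM at day 65, 14.3 and 29.2 at day 80, 32.0 and 29.5 at day 100, 18.2 and 33.8 at day 120, and 44.8 and 44.6 at birth. Within each genotype both birth samples stood above all 8 earlier ones, as in 0.93% of genes (3.64% for WT alone, 6.47% for CF alone), but in CF the margin over day 65 replicate 2 was under 1 CPM. The WT day 80 sample at 90.3 CPM is the library with thyroid genes.

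TSC22D3, also called GILZ, encodes a leucine zipper protein that carries part of the anti-inflammatory action of glucocorticoids (chromosome X, positions 120260650 to 120327170). WT samples gave 56.7 and 55.4 CPM at day 65, 82.7 and 186.7 at day 80, 45.5 and 42.3 at day 100, 41.3 and 47.8 at day 120, and 115.3 and 128.3 at birth. CF samples gave 56.7 and 49.4 CPM at day 65, 118.4 and 74.7 at day 80, 38.6 and 51.8 at day 100, 62.2 and 43.6 at day 120, and 37.1 and 57.8 at birth. Day 80 was the highest age in CF, and at birth both WT samples stood above both CF samples, as in 15.6% of genes. The highest day 80 samples of each genotype, 186.7 and 118.4 CPM, are those carrying thyroid and skeletal muscle genes.

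At birth, KLF9 and FKBP5 rose against the mean of days 65 to 120 over both genotypes, and no other member passed edgeR's test with all samples. KLF9 was 5.12-fold higher, a log2 fold change of 2.36 ± 0.27 (SE), with an adjusted p of 0.000170 by edgeR's quasi-likelihood test with Benjamini-Hochberg adjustment over all genes. FKBP5 was 2.16-fold higher, 1.11 ± 0.26 on the log2 scale (edgeR adjusted p = 0.0151). These are 2 of 9 members called, both higher, where 11.5% of all genes tested were called and 5.71% were higher. The other log2 differences were 2.83 ± 0.96 for ZBTB16 (edgeR adjusted p = 0.0795), 1.00 ± 0.55 for PER1 (0.297), 0.84 ± 0.47 for HSD11B1 (0.318), 0.76 ± 0.38 for HSD11B2 (0.253), 0.33 ± 0.19 for TSC22D3 (0.343), 0.12 ± 0.30 for SGK1 (0.887) and 0.03 ± 0.72 for NR3C1 (1). The median over the 9 members was 0.84, against 0.02 over all genes tested.

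The KLF9 call held under each of the 20 runs that left out 1 sample, with log2 fold changes of 2.21 to 2.55. The FKBP5 call did not hold without WT birth replicate 2 (edgeR adjusted p = 0.0566), CF birth replicate 1 (0.0656) or CF birth replicate 2 (0.0595). It was also lost with library size alone as the scaling (0.0649) and with the samples of a shared identifier summed (0.0947). ZBTB16 was called without WT day 80 replicate 2 (edgeR adjusted p = 0.0207) or WT day 120 replicate 1 (0.0213). DESeq2 called 3 members, ZBTB16 (log2 fold change 2.86, adjusted p = 0.0346) beside KLF9 and FKBP5, where it called 17.9% of genes.

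Birth samples also differed in cell types. Of 14 adipocyte markers 13 rose at birth (median log2 difference 4.23), with summed levels of 255 to 6281 CPM at birth and 29.3 to 3114 CPM before, and ADIPOQ and PLIN1 were above 0 in every library. In WT at birth KLF9 stood at 125.5 CPM beside an adipocyte sum of 6281 CPM, the highest of both, and at 85.9 CPM beside 255 CPM. In WT at day 120 it stood at 37.4 CPM beside 3114 CPM, the highest of both before birth, and at 22.7 CPM beside 180 CPM. In CF at birth KLF9 was 43.8 CPM beside an adipocyte sum of 303 CPM and 40.4 CPM beside 3243 CPM. Epithelial markers rose in 7 of 21 (4454 to 12624 CPM at birth, 1701 to 10760 CPM before), macrophage and neutrophil markers in 3 of 15, and fibroblast markers fell in 5 of 15 (11848 to 28809 CPM at birth, 4941 to 54284 CPM before). Cartilage markers summed to 1622 to 4288 CPM at birth and 381 to 3550 CPM before. Over all genes tested, 5.71% rose at birth and 11.5% were called in either direction. The part of these shifts in the KLF9 and FKBP5 results was not tested.

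Within WT, KLF9 (log2 fold change 2.57 ± 0.38, edgeR adjusted p = 0.00283) and FKBP5 (1.59 ± 0.36, adjusted p = 0.0280) rose at birth, 2 of 9 members where 4.01% of genes were called and 2.48% were higher. TSC22D3 (0.97 ± 0.26, edgeR adjusted p = 0.0601), HSD11B1 (1.67 ± 0.64, 0.190) and ZBTB16 (3.57 ± 1.34, 0.181) missed the threshold of 0.05. Within CF, KLF9 rose (2.15 ± 0.38, edgeR adjusted p = 0.00566), 1 of 9 members where 5.18% of genes were called and 2.06% were higher. FKBP5 gave 0.63 ± 0.38 (adjusted p = 0.464) and TSC22D3 -0.32 ± 0.29 (0.675) by the same test in CF. The difference between the genotypes in this change was itself tested and was called for 0 of 9 members by edgeR and 0 by DESeq2. Of all genes edgeR called 0.0199%, and the other settings, DESeq2 among them, called 0 to 297 genes. With edgeR 1 member had an unadjusted p under 0.05, as had 6.59% of genes. The difference was -1.29 ± 0.40 for TSC22D3 (CF minus WT, unadjusted p = 0.00678, edgeR adjusted p = 0.396), -0.97 ± 0.56 for FKBP5 (0.922) and -0.42 ± 0.61 for KLF9 (1). TSC22D3 passed in WT without WT day 80 replicate 1 (edgeR adjusted p = 0.0356) or replicate 2 (0.00994), without the 4 libraries holding other tissue (0.0263), with RLE scaling (0.0498) and with the length slope as a covariate (0.0318). DESeq2 also called it in WT (adjusted p = 0.0135). FKBP5 in WT lost its call without either sample of WT day 65, day 100 or birth, or without WT day 120 replicate 2 (7 of 20 runs, edgeR adjusted p up to 0.179), and KLF9 in CF lost it without CF birth replicate 1 (0.0865) or replicate 2 (0.0578).

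**Figure D2:**
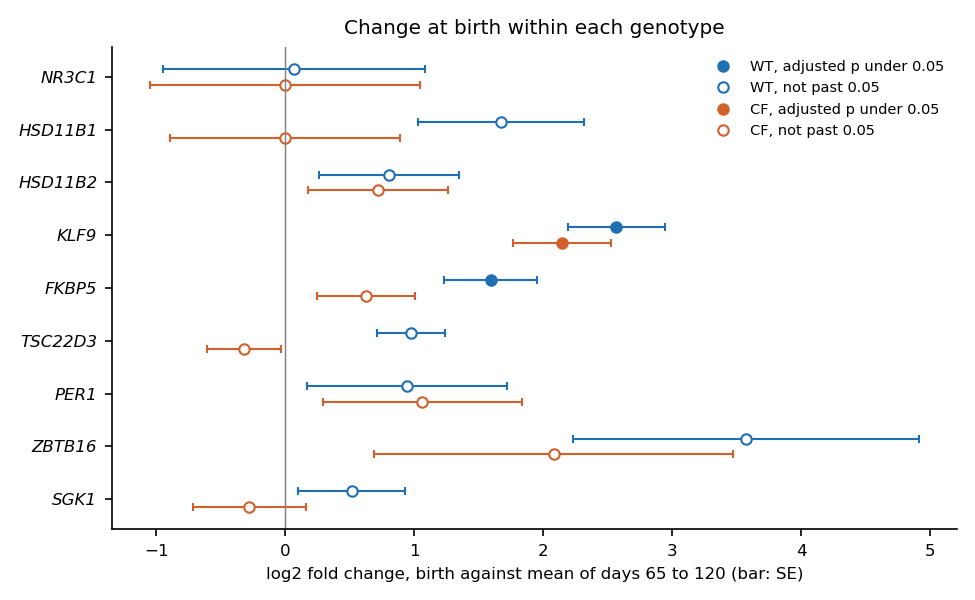
Log2 fold change at birth against the mean of days 65 to 120 for each gene within WT (blue) and CF (orange), with SE as bars; filled points have an adjusted p under 0.05. KLF9 is filled in both genotypes (2.57 and 2.15) and FKBP5 in WT alone (1.59), and no difference between the genotypes passed its own test.

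Between neighbouring ages, 1 member moved past the threshold. TSC22D3 fell from day 80 to day 100 by 1.36 on the log2 scale (SE 0.26, edgeR adjusted p = 0.00986), a step at which 8.92% of genes were called and 5.7% fell. Over the same step HSD11B2 differed by -1.33 ± 0.52 (edgeR adjusted p = 0.127). From day 65 to day 80, TSC22D3 differed by 1.06 ± 0.25 and HSD11B2 by 2.19 ± 0.54, each with an edgeR adjusted p of 0.131. At that step 0 of 9 members were called by edgeR and 2 by DESeq2, where edgeR called 0% of genes and DESeq2 8.9%. With edgeR 2 members had an unadjusted p under 0.05, as had 23.6% of genes. TSC22D3 passed at that step without WT day 80 replicate 1 (edgeR adjusted p = 0.0156) or CF day 80 replicate 2 (0.0454). From day 100 to day 120, 0 of 9 were called by either tool, where edgeR called 0.0995% of genes. With edgeR 1 member had an unadjusted p under 0.05, as had 7.92% of genes. KLF9 stood at 0.85 ± 0.39 (edgeR adjusted p = 0.618). From day 120 to birth, 0 of 9 were called by edgeR (background 0.134%) and 2 by DESeq2 (background 1.87%). With edgeR 3 members had an unadjusted p under 0.05, as had 6.41% of genes. FKBP5 stood at 1.55 ± 0.36 (edgeR adjusted p = 0.137) and KLF9 at 1.45 ± 0.39 (0.221). Both passed at this step without WT day 80 replicate 1 or without replicate 2, at edgeR adjusted p of 0.0175 to 0.0252, where 0.438% and 0.482% of genes were called.

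The fall of TSC22D3 was not called without WT day 100 replicate 2 (edgeR adjusted p = 0.0619) or CF day 100 replicate 1 (0.0739), nor with samples of a shared identifier summed (0.0652). Without the 4 libraries holding other tissue the difference was -0.82 (edgeR adjusted p = 0.142), with the remaining day 80 samples at 82.7 and 74.7 CPM and the day 100 samples at 38.6 to 51.8 CPM. Fibroblast markers fell in 12 of 15 over the same step, where 5.7% of all genes fell. A test for any difference among the 5 ages called 3 members, KLF9 (edgeR adjusted p = 0.000646), TSC22D3 (0.00800) and FKBP5 (0.0386), where 17.9% of genes were called, and HSD11B2 stood at 0.0531.

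NR3C1, the receptor, lies on chromosome 5, positions 51659638 to 51777492. WT samples measured 73.4 and 50.4 CPM at day 65, 2.84 and 49.0 at day 80, 12.5 and 28.5 at day 100, 65.4 and 6.99 at day 120, and 65.2 and 3.98 at birth. CF samples measured 39.7 and 48.3 CPM at day 65, 25.5 and 16.4 at day 80, 49.1 and 49.2 at day 100, 13.1 and 63.5 at day 120, and 47.2 and 25.4 at birth. At day 120 and at birth the 2 WT replicates spanned most of the range of the gene, and every age overlapped every other. The 9 libraries of negative length slope held 2.84 to 28.5 CPM and the 11 of positive slope 39.7 to 73.4 CPM, with no overlap, a separation seen in 4.14% of genes tested. No age step or genotype comparison of NR3C1 was called, and its difference at birth ran from -1.53 to 0.51 on the log2 scale as single samples were left out, the lowest without WT birth replicate 1.

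PER1, a core repressor of the circadian clock with a glucocorticoid response element in its promoter, varied in the same way (chromosome 11, positions 27300535 to 27315607). WT samples measured 54.5 and 58.9 CPM at day 65, 4.13 and 48.8 at day 80, 11.97 and 22.9 at day 100, 47.0 and 9.998 at day 120, and 98.6 and 14.5 at birth. CF samples measured 45.2 and 40.1 CPM at day 65, 24.3 and 17.9 at day 80, 33.3 and 45.9 at day 100, 11.9 and 49.1 at day 120, and 84.4 and 50.5 at birth. Both CF birth samples exceeded all 8 earlier CF samples, as in 6.47% of genes, while WT birth replicate 2 lay below 5 of the 8 earlier WT samples. Libraries of negative slope spanned 4.13 to 50.5 CPM and those of positive slope 33.3 to 98.6 CPM. Among the latter, both birth samples (84.4 and 98.6 CPM) lay above all earlier ones (33.3 to 58.9 CPM), as in 4.37% of genes. Among libraries of negative slope they overlapped, at 14.5 and 50.5 CPM at birth against 4.13 to 24.3 CPM before.

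ZBTB16, also called PLZF, is a zinc finger repressor strongly induced by glucocorticoids in many cell types (chromosome 15, positions 24016079 to 24213680). WT samples gave 6.34 and 4.23 CPM at day 65, 0 and 1.91 at day 80, 0.0739 and 0.593 at day 100, 2.74 and 0 at day 120, and 27.0 and 2.54 at birth. CF samples gave 1.79 and 1.93 CPM at day 65, 0.231 and 0.429 at day 80, 0.959 and 2.99 at day 100, 0.112 and 3.14 at day 120, and 7.88 and 2.20 at birth. The highest sample, WT birth replicate 1, held 1448 counts and was also the library with the highest adipocyte level. Samples WT day 80 replicate 1 and WT day 120 replicate 2 held 0 counts, which allows at least up to 0.0546 and 0.0540 CPM (3 counts, counting error only). In these libraries 84.1% and 81.4% of counts from 1 to 20 were even, so these bounds are too low. Birth samples lay above earlier ones within both slope sets, at 2.20 and 2.54 against 0 to 0.593 CPM where the slope was negative, and at 7.88 and 27.0 against 0.959 to 6.34 CPM where it was positive. This held in both sets for 1.26% of genes, and for 4.22% in the negative set.

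With the length slope as a covariate, 4 of 9 members were called at birth, and so were 27.3% of all genes tested. PER1 (log2 fold change 1.11, edgeR adjusted p = 0.00107) and ZBTB16 (3.58, 0.000822) joined KLF9 and FKBP5. Leaving out the 5 libraries of lowest slope, an alternative chosen after seeing the data, also gave 4, where 13.6% of genes were called, with PER1 at 1.08 (edgeR adjusted p = 0.00624) and ZBTB16 at 2.80 (0.00493). KLF9 at birth lay above earlier samples within both slope sets as well, at 40.4 and 85.9 against 4.56 to 22.7 CPM for negative slopes and at 43.8 and 125.5 against 5.19 to 37.4 CPM for positive ones, again a separation found in both sets for 1.26% of genes. FKBP5 did so for negative slopes alone, at 44.6 and 110.4 against 14.3 to 29.2 CPM, as in 4.22% of genes. For positive slopes it overlapped, at 44.8 and 91.4 against 22.8 to 90.3 CPM, the last being the library with thyroid genes.

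**Figure D3:**
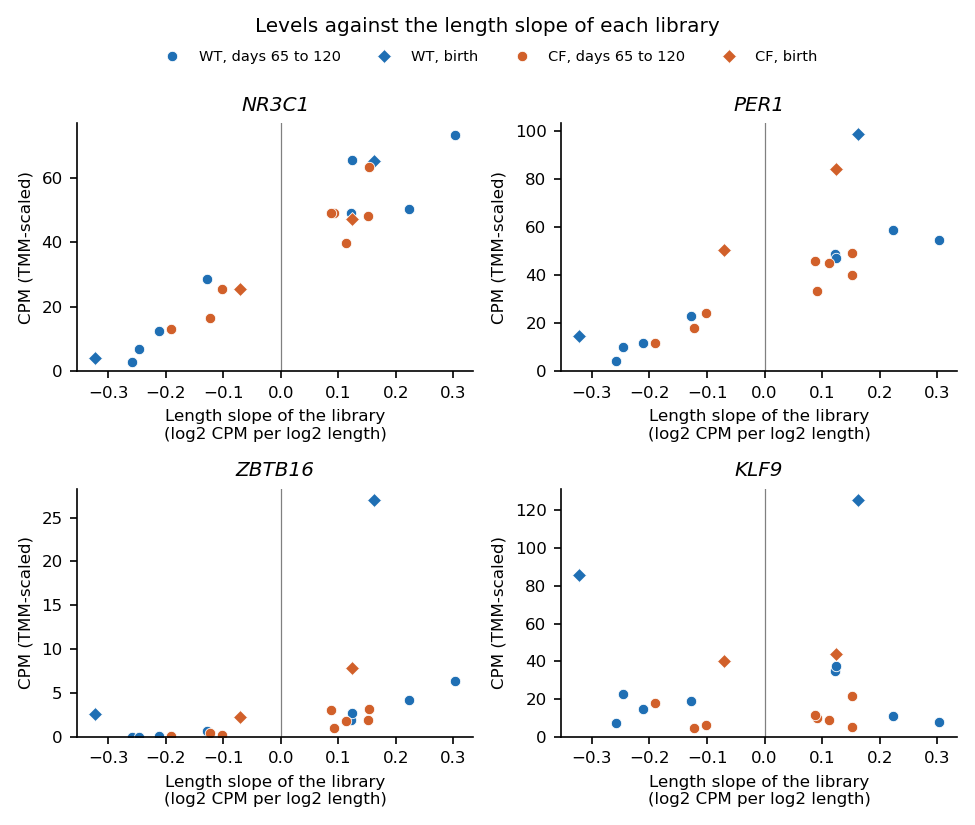
Level of NR3C1, PER1, ZBTB16 and KLF9 (TMM-scaled CPM, linear axes from 0) against the length slope of each library; circles are days 65 to 120, diamonds birth, WT blue and CF orange. NR3C1 splits at a slope of 0 into libraries at 2.84 to 28.5 CPM and at 39.7 to 73.4 CPM, while the KLF9 birth samples are highest on both sides.

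HSD11B1 lies on chromosome 12, positions 71628009 to 71691281, and HSD11B2 on chromosome 14, positions 34288685 to 34294412. HSD11B1 measured 0.723 and 0.742 CPM in WT at day 65, 0.820 and 0.588 at day 80, 1.22 and 0.604 at day 100, 1.72 and 3.46 at day 120, and 4.49 and 2.21 at birth. In CF it measured 0.312 and 2.98 CPM at day 65, 0.878 and 1.54 at day 80, 1.28 and 1.64 at day 100, 3.43 and 1.10 at day 120, and 0.844 and 2.36 at birth. WT samples were thus highest at day 120 and birth, and the CF day 65 sample at 2.98 CPM is the library with liver genes, a tissue known for abundant HSD11B1. HSD11B2 measured 0.355 and 0.721 CPM in WT at day 65, 2.81 and 0.966 at day 80, 0.887 and 0.639 at day 100, 0.693 and 1.42 at day 120, and 1.602 and 1.72 at birth. In CF it measured 0.312 and 0.258 CPM at day 65, 2.15 and 1.25 at day 80, 0.548 and 0.770 at day 100, 2.20 and 0.484 at day 120, and 1.27 and 1.40 at birth. Day 65 samples were the lowest in CF, and all 4 day 80 samples lay above all 4 day 65 samples, as in 9.1% of genes.

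Per length, HSD11B2 exceeded HSD11B1 in 19 of 20 samples. The exception was the CF day 65 sample with liver genes, at a log2 ratio of HSD11B1 to HSD11B2 of 1.55. This order rested on dividing by exon lengths of 1859 bases for HSD11B2 and 6589 bases for HSD11B1. Before that division the mean was higher for HSD11B1, at 1.65 ± 1.16 CPM (SD, n = 20) against 1.12 ± 0.70 CPM for HSD11B2. The effect of the length slope on the ratio was not tested. The mean log2 ratio was -1.33 ± 0.85 at birth (SD, n = 4) and -1.33 ± 1.19 before (n = 16), a difference of 0.00268 that an exact two-sided permutation test did not separate from 0 (p = 0.977). H6PD, which supplies the cofactor that HSD11B1 needs, ranged from 1.71 to 63.3 CPM, and NR3C2, the mineralocorticoid receptor that HSD11B2 protects from cortisol, from 10.4 to 30.3 CPM. H6PD lay at 1.71 to 14.8 CPM where the length slope was negative and at 24.3 to 63.3 CPM where it was positive. Such a separation was seen in 4.14% of genes tested.

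**Figure D4:**
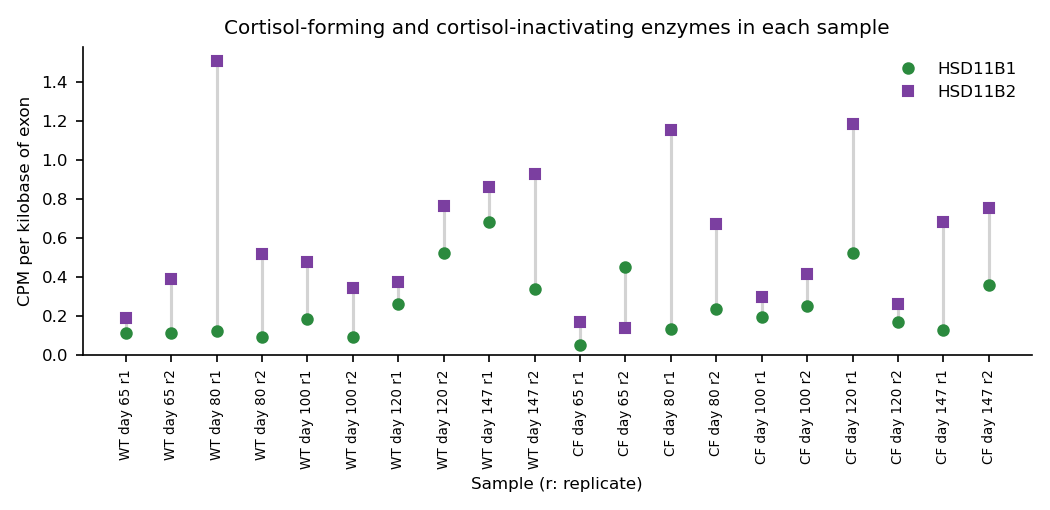
Level per kilobase of exon (CPM per kilobase, linear axis from 0) of HSD11B1 (green circles) and HSD11B2 (purple squares) in each sample, joined by a line. On this scale HSD11B2 is the higher of the pair in 19 of 20 samples, the exception being CF day 65 replicate 2.

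SGK1, a kinase that keeps the epithelial sodium channel at the cell surface, lies on chromosome 8, positions 59254689 to 59365437. WT samples measured 38.6 and 28.8 CPM at day 65, 21.3 and 92.0 at day 80, 17.9 and 24.2 at day 100, 32.6 and 12.9 at day 120, and 56.1 and 32.3 at birth. CF samples measured 41.2 and 36.3 CPM at day 65, 30.8 and 32.9 at day 80, 29.1 and 35.5 at day 100, 27.5 and 28.3 at day 120, and 28.8 and 24.7 at birth. The CF samples stayed within 24.7 to 41.2 CPM, and the highest WT value, 92.0 CPM, came from the library with thyroid genes. No comparison of SGK1 was called with all samples.

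Between the genotypes, 0 of 9 members were called over the mean of the ages by edgeR, which called 0.766% of genes. DESeq2 called 1, KLF9, and 4.12% of genes. With edgeR 1 member had an unadjusted p under 0.05, as had 11.2% of genes. KLF9 had a log2 difference, CF against WT, of -0.99 ± 0.25 (unadjusted p = 0.00143, edgeR adjusted p = 0.0985), a level 1.99-fold lower in CF. FKBP5 differed by -0.40 ± 0.22 (edgeR adjusted p = 0.545) and TSC22D3 by -0.33 ± 0.16 (0.482), and the other 6 lay between -0.36 and 0.27 with adjusted p of at least 0.831. Both CF samples of KLF9 lay below both WT samples at 4 or more ages, as in 0.97% of genes. The KLF9 difference passed with DESeq2 (-1.01, adjusted p = 0.00372), with the length slope as a covariate (-1.03, edgeR adjusted p = 0.0148), without the 5 libraries of lowest slope (-1.27, 0.0110) and without WT day 80 replicate 1 (-1.15, 0.00425). It was -0.62 without the 4 libraries holding other tissue, among them the thyroid library, in which KLF9 stood at 35.1 CPM.

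Age by age, edgeR called 0 of 9 members at each of the 5 ages. Over all genes it called 0.00995% at day 65, 1.46% at day 100 and 0.0945% at birth, and 0% at both day 80 and day 120. At an unadjusted p under 0.05 there were 2 members at day 80, 3 at birth and 0 at the remaining ages, and DESeq2 called KLF9 at day 80 (with 3.45% of all genes) and TSC22D3 at birth (with 2.11%). At day 80 the CF against WT difference was -1.95 ± 0.56 for KLF9 (edgeR adjusted p = 0.278) and -1.38 ± 0.51 for FKBP5 (0.387). Without the thyroid library these were -0.38 for KLF9 and -0.06 for FKBP5. Without the other WT day 80 sample both were called, at an edgeR adjusted p of 0.00478 for KLF9 and 0.0224 for FKBP5, as were 1.69% of genes. At birth the differences were -1.36 ± 0.36 for TSC22D3 (unadjusted p = 0.00246, edgeR adjusted p = 0.240), -1.33 ± 0.55 for KLF9 (0.561) and -1.17 ± 0.50 for FKBP5 (0.584), and for each of these genes both CF samples lay below both WT samples, as they did for 15.6% of all genes. At day 100, where 11 of 15 fibroblast markers were higher in CF, the largest member difference was 2.53 ± 2.11 for ZBTB16 (edgeR adjusted p = 0.601). A test of whether the genotype difference varied with age called 0 of 9 members by edgeR and by DESeq2, where edgeR called 0.0697% of genes. At an unadjusted p under 0.05 edgeR gave 0 members and 7.28% of genes.

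**Figure D5:**
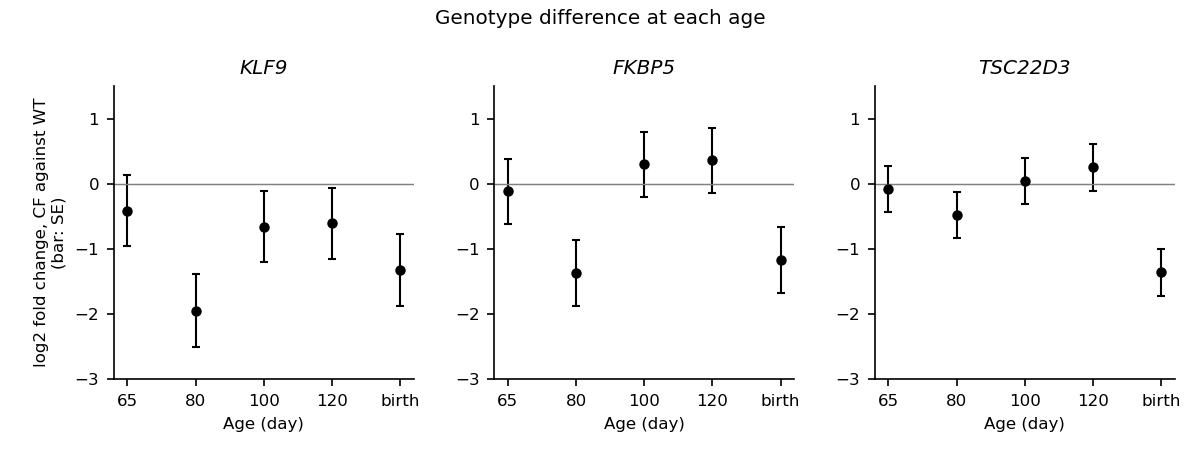
Log2 fold change, CF against WT, at each age for KLF9, FKBP5 and TSC22D3, with SE as bars and a grey line at 0. KLF9 is below 0 at every age, from -1.95 at day 80 to -0.41 at day 65, and all 3 genes are below 0 at birth, where none passed the test.

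The other genes of the pathway were read from lists chosen for their roles. Among other genes known to be induced by glucocorticoids, 17 of 51 tested rose at birth and 0 fell, with a median log2 difference of 0.54, where 5.71% of all genes rose. PDK4, which switches muscle and fat from glucose to fatty acids, rose from 5.39 ± 5.61 CPM (SD, n = 16) to 57.4 ± 46.0 CPM (n = 4), a log2 fold change of 3.28 ± 0.43 (SE, edgeR adjusted p = 0.000396). Its birth samples were at 108.6 and 82.7 CPM for WT but at 10.003 and 28.2 CPM for CF, the lowest of them below day 80 samples at 18.6 and 19.7 CPM. DUSP1, a phosphatase that shuts off stress kinases, rose from 64.0 ± 23.3 to 471 ± 406 CPM, with 46.8 and 201.6 CPM in the WT birth samples against 843 and 793 CPM in the CF ones. ZFP36, which destabilises cytokine messages, rose from 13.9 ± 5.15 to 100.0 ± 79.2 CPM, with 33.3 and 32.3 CPM for WT and 187 and 148 CPM for CF at birth. AZGP1, a secreted glycoprotein linked to fat breakdown, rose from 30.6 ± 24.2 to 114.9 ± 43.1 CPM, and ACSL1, which activates fatty acids, from 93.3 ± 92.0 to 330 ± 390 CPM. AZGP1 birth samples were at 51.4 and 125.3 CPM for WT and 138.9 and 144.2 CPM for CF, the lowest of them below CF day 120, at 80.5 and 70.1 CPM. The ACSL1 maximum of 899 CPM was in WT birth replicate 1, the library richest in adipocyte markers, and WT birth replicate 2 held 66.1 CPM. With samples of a shared identifier summed, 6 of 51 rose, with library size alone 10, and with single samples left out 9 to 19, the count of 9 being reached without WT birth replicate 1, CF birth replicate 1 or CF birth replicate 2. The number of all genes called at birth moved too. It was 2302 with all samples, 1086 to 3003 with single samples left out and 808 to 5477 over the other settings.

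Of 17 genes known to be repressed by glucocorticoids, 2 rose and 0 fell at birth, against 5.71% of all genes that rose. These were LIF, a cytokine (log2 fold change 2.83 ± 0.42, edgeR adjusted p = 0.000908), and PTGS2, the inducible cyclooxygenase (1.75 ± 0.20, 0.000195). LIF was at 9.33 and 2.32 CPM in the WT birth samples, within the earlier WT range of up to 9.93 CPM, and at 55.6 and 32.6 CPM in the CF ones. PTGS2 was at 19.1 and 24.8 CPM in the WT birth samples and 47.9 and 37.1 CPM in the CF ones. An earlier sample, CF day 120 replicate 2, held PTGS2 at 37.3 CPM. The count was 6 without WT day 80 replicate 2, 5 without WT day 80 replicate 1, 4 without CF day 65 replicate 2 or the 5 libraries of lowest slope, and 5 with DESeq2, with the slope covariate or without the 4 libraries holding other tissue. Of all genes, DESeq2 called 17.9% in either direction. The slope covariate gave 27.3%, and leaving out the 5 libraries of lowest slope gave 13.6%. Immediate early genes, which answer many stimuli within minutes and include FOS and EGR1, rose in 16 of 21 with a median log2 difference of 1.49. Summed over the list, the WT birth samples held 630 and 2583 CPM and the CF birth samples 3319 and 2813 CPM, where earlier samples held 402 to 705 CPM. The WT birth samples at 630 and 2583 CPM held KLF9 at 125.5 and 85.9 CPM. The CF birth samples at 3319 and 2813 CPM held it at 43.8 and 40.4 CPM. Whether KLF9 and these transcripts are related was not tested.

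Clock genes rose at birth in 3 of 18, where 5.71% of all genes rose. The count that rose was 12 with the length slope as a covariate (27.3% of all genes called in either direction), 7 with DESeq2 (17.9% in either direction), 5 without the 4 libraries holding other tissue, the 5 of lowest slope or WT day 80 replicate 1, and from 2 to 5 over left-out samples. DBP, a clock output factor, rose by 1.30 ± 0.25 on the log2 scale (edgeR adjusted p = 0.00532), PER3 by 1.17 ± 0.18 (0.00130) and NFIL3 by 0.60 ± 0.16 (0.0269). The birth samples of DBP were at 16.2 and 61.6 CPM for WT and 25.8 and 26.5 CPM for CF. They overlapped WT day 120, at 22.1 and 36.1 CPM. PER3 was the one gene of the 6 lists called between the genotypes over the mean of the ages, at -0.84 ± 0.16, CF against WT (edgeR adjusted p = 0.0324). In that comparison 0.766% of all genes tested were called. Among 11 genes of hormone supply, STAR, which brings cholesterol into mitochondria, rose (log2 fold change 2.51 ± 0.68, edgeR adjusted p = 0.0308), at only 0.919 ± 0.938 CPM at birth. Its birth samples were at 1.01 and 0.177 CPM for WT and 0.281 and 2.21 CPM for CF, and the call was lost with samples of a shared identifier summed and without any one of WT day 65 replicate 1 or 2, WT birth replicate 1, CF day 65 replicate 1, CF day 100 replicate 1 or CF birth replicate 2. Among 25 genes of the receptor's chaperones and cofactors, DNAJB1 rose (0.88 ± 0.25, edgeR adjusted p = 0.0414). The CF birth samples were at 665 and 772 CPM, and the WT birth samples, at 100.4 and 153.6 CPM, lay within the earlier WT range of 70.5 to 314.7 CPM. The call was lost in 11 of the 20 runs that left out 1 sample, namely WT day 65 replicate 1, WT birth replicate 2, CF day 80 replicate 1, or either sample of WT day 100, CF day 65, CF day 100 or CF birth. It was also lost with library size alone, with summed pairs, and without the 4 libraries holding other tissue or the 5 of lowest slope, while the slope covariate gave 3 of 25.

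The genes whose log2 CPM followed each member most closely over the 20 samples were listed by Pearson's r, as a description, since all values share libraries and depth. For NR3C1 these included ATP2B4 and CAPRIN1, each at 0.99, and ATP2B4, like NR3C1, was lowest in WT day 80 replicate 1 and WT birth replicate 2, at 0.58 and 0.75 CPM. PER1 was followed by USP53, LARP1 and KIAA0430 (each 0.96), and ZBTB16 by MAFG (0.92), PER1 (0.92) and SYTL4 (0.91). KLF9 was followed by OSTM1 (0.94), C23H18orf8 (0.94) and PER3 (0.91). TSC22D3 was closest to IRAK1 (0.87), SGK1 to DERL1 (0.88), HSD11B2 to PREB (0.86), FKBP5 to PACSIN2 (0.81) and HSD11B1 to RCL1 (0.80). Between members the highest r was that of PER1 with ZBTB16, then 0.90 for NR3C1 with PER1, and the lowest was -0.65 for NR3C1 with HSD11B2. KLF9 and NR3C1 gave 0.02.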

How the data were processed

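The submitters' processing notes name STAR 2.6 for alignment and featureCounts 1.6.3 (Subread) for counting. No source used here gives the genome build, and coordinates are those of the deposited tables. The deposited values are raw counts. Of counts from 1 to 20, 70.7% to 85.3% per library were even, so counting intervals would be too narrow. Symbols came from the tables, and no member shares exon positions with another gene.

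Groups came from sample titles. Tests used edgeR 4.0.16 in R 4.3.3 (filterByExpr, TMM, robust glmQLFit, glmQLFTest) with 1 coefficient for each of the 10 groups, adjusted over 20097 genes at 0.05. Levels are CPM of the TMM-scaled library. Log2 CPM used a prior count of 2. The script was tested on simulated data. Members and lists were chosen with earlier results of these data known. Besides members, the text names up to 5 called genes per list and direction with the largest change, and the genes of highest r. Single marker genes were chosen after their values were seen. DESeq2 1.42.0, other scalings, no filter, left-out samples, summed pairs and the length slope were alternatives. Promoter motifs were not analysed here, and 1 gene of high r is not reported here.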

Additional observations from a re-analysis of the deposited data

How the results depend on the processing

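Counts of members called moved with the settings. At birth over both genotypes 2 became 1 with library size alone or with samples of a shared identifier summed, 3 with DESeq2, and 4 with the length slope as a covariate or without the 5 libraries of lowest slope. In WT 2 became 1 with library size alone or summed pairs, 3 with RLE scaling, DESeq2 or without the 4 libraries holding other tissue, and 5 with the slope covariate; in CF 1 became 0 with summed pairs and 2 with the slope covariate or without those 5 libraries. From day 65 to day 80, 0 became 2 with DESeq2 or without the 5 libraries. From day 80 to day 100, 1 became 0 with summed pairs or without the 4 libraries holding other tissue, and 2 without the 5. From day 120 to birth, 0 became 2 with DESeq2 or the slope covariate. Between genotypes over the mean of the ages 0 became 1 with DESeq2, the slope covariate or without the 5 libraries, at day 80 it became 1 with DESeq2 and 3 without the 5, and at birth 1 with DESeq2. For any difference among the ages, 3 became 5 with DESeq2, 6 with the slope covariate and 7 without the 5 libraries, and for a genotype difference that varies with age 0 became 1 without the 5 libraries. Over the same settings the number of all genes called moved too. It ran from 808 to 5477 at birth over both genotypes, from 326 to 2831 in WT and from 54 to 3285 in CF. For any difference among the ages it ran from 1553 to 7647. Between genotypes it ran from 2 to 827 over the mean of the ages, from 0 to 1772 at day 80 and from 1 to 425 at birth. The cause of these shifts was not tested.

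Leaving out single samples gave 1 to 3 members at birth over both genotypes, 1 to 3 in WT, 0 to 1 in CF, 0 to 1 from day 65 to 80, 0 to 2 from day 80 to 100, 0 to 2 from day 120 to birth, 0 to 1 between genotypes over the mean of the ages, 0 to 2 at day 80 and 2 to 4 for any difference among the ages. The difference in the HSD11B1 to HSD11B2 ratio, birth against earlier ages, ran from -0.320 to 0.357, and was -0.00772 with count + 0.5 in both genes and -0.0395 without the 4 libraries holding other tissue. Uncalled members that changed sign at birth were NR3C1, at -0.0244 with library size alone and -0.0185 with the replicate block (-1.53 to 0.51 over left-out samples), and SGK1 (-0.11 to 0.31 over left-out samples). Between genotypes over the mean of the ages, NR3C1 was -0.37 and PER1 -0.27 without the 5 libraries, and HSD11B1 -0.17, ZBTB16 1.43 and SGK1 0.18 without the 4 libraries. Over left-out samples these were -0.19 to 0.76 for NR3C1, -0.11 to 0.69 for PER1, -0.20 to 0.45 for HSD11B1, -1.13 to 1.52 for ZBTB16 and -0.24 to 0.19 for SGK1. FKBP5 at day 80 was 0.37 without the 4 libraries.

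With the replicate number as a block the counts of members called were the same as without it: 2 at birth over both genotypes, 2 in WT, 1 in CF, 1 from day 80 to day 100 and 3 for any difference among the ages. The correlation of same-numbered samples ran from -0.723 to 0.423 over the ages. It did not keep its sign, but a single value per age cannot settle whether the numbers pair the samples.

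Over all genes, the number called ranged over the alternatives from 808 to 5477 at birth (2302 with all samples), from 279 to 2831 in WT (806), from 54 to 3285 in CF (1041), from 0 to 1789 for day 65 to 80 (0), from 141 to 5039 for day 80 to 100 (1793), from 0 to 507 for day 100 to 120 (20), from 0 to 384 for day 120 to birth (27), from 1553 to 7647 for any difference among the ages (3601) and from 0 to 821 for a genotype difference that varies with age (14). Between genotypes it ranged from 2 to 827 over the mean of the ages (154), from 0 to 150 at day 65 (2), from 0 to 1772 at day 80 (0), from 0 to 1210 at day 100 (294), from 0 to 17 at day 120 (0) and from 1 to 425 at birth (19), and for the genotype difference in the birth change from 0 to 297 (4). The low counts of HSD11B1 and HSD11B2 limit what could be detected for them.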
